A study of Mus musculus with 16 samples.

Results

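The regions described here had an H3K27ac peak call at E13.5 and none at E12.0. The cells were FACS-sorted mouse progenitors from the organ of Corti, which is the hearing epithelium of the inner ear. The regions were chosen by the H3K27ac peak calls themselves, and E12.0 signal too weak to be called was not measured. Peak intervals of 4 H3K27ac CUT&RUN libraries were merged where they overlapped by 1 bp or more, and a region was kept when both E13.5 peak lists and neither E12.0 list held it. This rule chose 3743 of 267936 merged regions (1.4%). Cells of E13.5 were sorted for p27-GFP and those of E12.0 for Sox2-GFP, so age and sorting reporter change together and cannot be told apart. The labels give no strain and no other allele, do not say how either reporter was made, and do not tell which replicates share a litter or animal, so any p-value reflects the spread among these libraries. Besides H3K27ac (2 libraries at each stage), the 16 samples comprise ATAC-seq (3 libraries at each stage), RNA-seq (2 at each stage) and pan-Tead CUT&RUN (2 libraries, at E12.0 only).

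Acetylation of lysine 27 on histone H3 marks active promoters and enhancers, and ATAC-seq reads DNA that is accessible to a transposase. The cochlear progenitors divide until the cyclin-dependent kinase inhibitor p27, encoded by Cdkn1b, is switched on, and they then give rise to hair cells and supporting cells. Tead proteins bind DNA and recruit Yap, the co-activator restrained by the Hippo kinases. Sox2 marks the prosensory cells, and Atoh1 starts hair cell differentiation.

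The libraries bore on these regions in several ways. The E13.5 H3K27ac lists held 118017 and 76022 peaks, and the E12.0 lists held 64887 and 92839. The labels give the KAPA HTP kit for E12.0 H3K27ac replicate 1 and E12.0 Tead replicate 1, and the Accel 2S Plus kit for the other CUT&RUN libraries, so a kit difference falls inside the E12.0 group. Summed expected counts of the RNA libraries were 17057751 and 19570946 at E13.5, against 9412326 and 9810603 at E12.0, and the mitochondrial rRNA mt-Rnr2 took 0.295% and 0.18% of them at E13.5, against 17.0% and 13.2% at E12.0. The summed TPM (length-scaled transcript abundance) of 9 otic epithelium markers, among them Sox2, Epcam and Gata3, was 3388 and 4161 at E13.5, against 1273 and 1593 at E12.0. TPM ran higher at E13.5 for most genes, which bears on all marker sums here. On log2(TPM + 1) the median change of all tested genes was 0.76, against 0.05 in the edgeR fit of counts described below. That fit called 4 of the 9 otic markers higher (44.4%, against 23.0% of tested protein-coding genes) and 2 lower (22.2%, against 21.3%). Their median log2 fold change was 0.28. Sums of 8 neuron markers were 953 and 845 at E13.5, against 204 and 306 at E12.0, nearly all of it from Isl1 (923 and 819.8 at E13.5, against 186 and 276 at E12.0), while Neurod1 was at 0 and 0.0362 at E13.5, against 3.35 and 7.38 at E12.0. Mesenchyme markers summed to 425 and 531 at E13.5 and 728 and 820.4 at E12.0, nearly all from Lum, glial and neural crest markers to 356 and 361 at E13.5, against 361 and 536 at E12.0 (Sox10 at 159.5 and 173 at E13.5, against 21.3 and 28.2 at E12.0, and Erbb3 at 166 and 170.2 at E13.5, against 321 and 477 at E12.0), and melanocyte markers to 22.3 and 37.8 at E13.5, against 4.9 and 26.3 at E12.0. Whether cells of these other types were present, or had a part in the RNA results, was not tested. Endothelial and blood markers stayed at 1.75 or below in every library. In sorted bulk cells, fewer cells of a type and less RNA per cell cannot be told apart.

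Promoters made up a small part of the set, as of all merged regions: 69 of the 3743 regions (1.84%) overlapped a RefSeq promoter window, which runs from 250 bases before to 50 after a transcription start, against 3.03% of all merged regions, 2.51% of the 2351 regions held by both E12.0 lists and neither E13.5 list, and 28.2% of the 5266 wider regions held by all 4 lists. The windows printed below show the range among them, one beside a gene with higher RNA at E13.5 (C2cd4b), one beside a gene with lower RNA (Sptlc1), the divergent promoter of Pgm3 and Rwdd2a, and the Gpr19 window next to the locus of the sorting reporter gene. They are RefSeq windows of GRCm38.p6, read 5′ to 3′ on the gene's strand, and capitals mark matches to the searched motifs on either strand. C2cd4b lies at chr9:67759187-67759486 (plus strand), Sptlc1 at chr13:53377312-53377611 (minus), Rwdd2a at chr9:86571738-86572037 (plus) and Gpr19 at chr6:134887736-134888035 (minus).
C2cd4b: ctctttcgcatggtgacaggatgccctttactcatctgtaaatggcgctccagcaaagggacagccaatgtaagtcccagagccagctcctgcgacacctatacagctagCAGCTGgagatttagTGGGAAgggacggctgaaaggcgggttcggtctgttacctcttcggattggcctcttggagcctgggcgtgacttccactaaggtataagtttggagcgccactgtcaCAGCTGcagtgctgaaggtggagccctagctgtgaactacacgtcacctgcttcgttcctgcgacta
Sptlc1: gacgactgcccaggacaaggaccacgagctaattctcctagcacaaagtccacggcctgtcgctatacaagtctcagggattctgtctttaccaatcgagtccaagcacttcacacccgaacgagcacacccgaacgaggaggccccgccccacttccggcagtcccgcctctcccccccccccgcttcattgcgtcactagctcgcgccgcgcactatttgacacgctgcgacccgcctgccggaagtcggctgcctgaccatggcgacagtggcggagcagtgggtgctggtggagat
Rwdd2a: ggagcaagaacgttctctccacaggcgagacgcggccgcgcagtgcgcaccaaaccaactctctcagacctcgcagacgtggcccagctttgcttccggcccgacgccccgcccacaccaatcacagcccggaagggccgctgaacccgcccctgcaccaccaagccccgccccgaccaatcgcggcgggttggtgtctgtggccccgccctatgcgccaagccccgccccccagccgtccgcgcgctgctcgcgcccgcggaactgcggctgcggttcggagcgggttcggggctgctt
Gpr19: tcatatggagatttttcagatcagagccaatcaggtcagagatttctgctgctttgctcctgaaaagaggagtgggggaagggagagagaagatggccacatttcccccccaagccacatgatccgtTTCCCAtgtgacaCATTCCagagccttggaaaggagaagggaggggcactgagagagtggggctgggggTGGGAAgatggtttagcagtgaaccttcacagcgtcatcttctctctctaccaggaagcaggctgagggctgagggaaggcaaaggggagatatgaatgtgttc
The motifs searched on both strands were GGAATG for Tead proteins, CAGCTG as an E-box that reads the same on both strands, AGATAA for zinc finger factors such as Gata3, AACAAAG for Sox proteins, TGACTCA for AP-1 and TGGGAA for Rbpj. The C2cd4b window held 2 CAGCTG matches and 1 TGGGAA match. The Gpr19 window held 1 GGAATG and 2 TGGGAA matches and only 2 CpG dinucleotides. The Sptlc1 and Rwdd2a windows, with 25 and 37 CpG dinucleotides, held no match.

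The 78 windows overlapped by an E13.5-only region were GC-rich like other promoters, with a median GC content of 59.8% against 56.3% in all 21238 protein-coding windows and 59.7% in the 2009 windows under regions of all 4 lists. GGAATG was in 12.8% of the 78 windows and 13.6% of all windows, and TGGGAA in 25.6% and 24.5%. CAGCTG was in 7 windows (8.97%, against 15.6% of all windows), AGATAA in 6 (7.69%, against 9.65%), TGACTCA in 5 (6.41%, against 4.66%) and AACAAAG in 2 (2.56%, against 5.01%). These counts describe letters in a window and are too few to rank the motifs.

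The H3K27ac values that chose the regions were modest, and they are given as a description. Fold enrichment and −log10 q here are the peak's own values as the authors' caller gave them. The median fold was 2.95 in E13.5 list 1 (range 1.67 to 10.4) and 3.29 in list 2 (1.92 to 7.06), and the median −log10 q was 2.36 and 1.64. Both lists gave a −log10 q of 2 or more to 664 regions (17.7%). The median width was 410 bp, against 1262 bp for regions of all 4 lists. Just outside the rule lay 3714 regions that both E13.5 lists and a single E12.0 list held, with median folds of 3.57 and 3.43 at E13.5. At the other edge, 772 members (20.6%) had an E12.0 peak within 500 bp without overlapping it. Among them were members named below, at C2cd4b (43 bp from an E12.0 peak), Zrsr1 (149 bp) and Maml1 (298 bp). The Apold1 member of highest folds, at 194 bp, was another. The replicate lists shared few regions: 12723 were in both E13.5 lists, 11.3% of list 1 and 17.3% of list 2, and 16043 were in both E12.0 lists, 26.0% and 17.9% of them. Leaving out E13.5 list 1 or list 2 would take the set to 60292 or 77200 regions, and leaving out E12.0 list 1 to 6562.

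In the full peak lists, more members than not lay outside the ATAC peaks of both stages, which also held for all merged regions. A region counted as open at a stage when all 3 ATAC libraries had a peak over it, and as not open when none had. By this count 2118 members (56.6%, against 68.7% of all merged regions) were open at neither stage. Another 336 (8.98%, against 3.79% of all merged regions) were open at E13.5 only, and 299 (7.99%, against 9.54%) at both stages. Mixed members numbered 990 (26.4%, a larger share than among all merged regions). The class open at E12.0 only held 0 members, and it held only 0.00672% of all merged regions. E12.0-only H3K27ac regions (2351, held by both E12.0 lists and neither E13.5 list) were open at neither stage in 30.5%, regions of all 4 lists in 1.16%, and regions held by a single E13.5 list and no E12.0 list in 77.8%. The share open at E13.5 only was 9.32% in E12.0-only H3K27ac regions, beside the 8.98% of members. E12.0-only H3K27ac regions and regions of all 4 lists also had 0 open at E12.0 only, so that 0 does not set members apart. Without E12.0 ATAC replicate 2, which had the longest E12.0 list, 527 members were open at E13.5 only. At stricter H3K27ac calls, regions open at neither stage were no longer the majority. They were 294 (44.3%) of the 664 members with −log10 q of 2 or more in both E13.5 lists. With that limit in all 4 H3K27ac lists they were 355 (37.5%) of 947 regions. The median fold of members open at both stages was 3.54 and 3.59 in the E13.5 H3K27ac lists, of those open at E13.5 only 3.16 and 3.29, and of those open at neither 2.94 and 3.29.

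**Figure D1:**
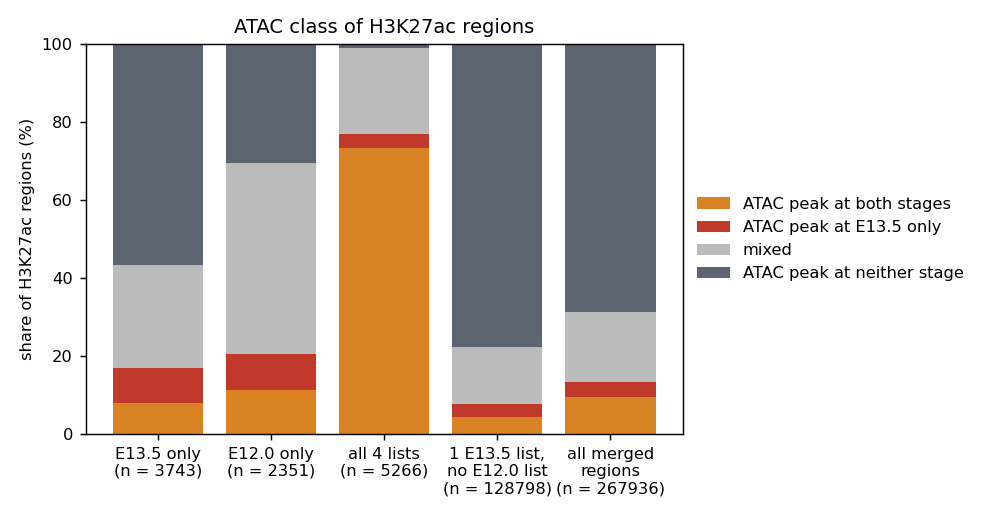
Share of H3K27ac regions (vertical axis, percent) in each ATAC class, for E13.5-only regions, E12.0-only regions, regions of all 4 lists, regions of 1 E13.5 list and no E12.0 list, and all merged regions. The class with no ATAC peak at either stage holds 56.6% of the E13.5-only regions and 1.16% of the regions of all 4 lists.

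ATAC libraries were not used to choose the regions, so the share under a peak was compared by library. The E13.5 libraries had a peak over 35.9%, 33.8% and 36.9% of members, and the E12.0 libraries over 13.3%, 19.7% and 13.4%. Every E13.5 library lay above every E12.0 library, and the means were 35.6% ± 1.59 and 15.5% ± 3.68 (SD, n = 3 each), a difference of 20.1 percentage points (two-sided exact permutation test, p = 0.1, the smallest that 3 against 3 can give). The E13.5 ATAC lists were longer (208061 to 226496 peaks, against 112563 to 143742 at E12.0), and other H3K27ac regions moved the same way. E12.0-only regions lay under a peak in 54.5%, 52.8% and 57.7% at E13.5, against 23.9%, 37.1% and 21.7% at E12.0, and all merged regions in 25.2%, 24.2% and 25.9% at E13.5, against 13.9%, 18% and 13.1% at E12.0. With every list trimmed to its 112563 peaks of highest −log10 p, the members' difference was 12.8 points (exact p = 0.1). Regions of all 4 lists lay under a peak in 97.6%, 96.6% and 97.7% at E13.5, against 82.7%, 90.1% and 79.9% at E12.0. They were near their ceiling at E13.5, so the difference between the members' change and theirs (7.05 points, 3.0 with trimmed lists and 1.74 at an ATAC −log10 q of 2 or more) is given as values only. A comparison added after the values were seen set members against all merged regions: they stood 10.5 ± 0.725 points above them at E13.5 and 0.485 ± 1.17 points above them at E12.0 (SD, n = 3 each). This rise was not particular to members. By the shares above, E12.0-only regions stood farther above all merged regions in every library, and by more at E13.5 than at E12.0. All merged regions were also narrower, with a median width of 247 bp, against 410 bp for members.

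**Figure D2:**
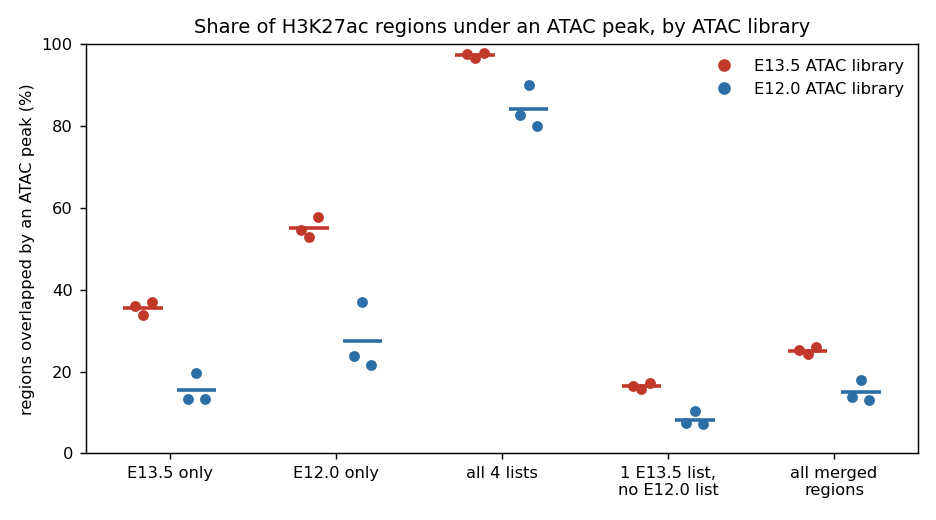
Share of H3K27ac regions overlapped by an ATAC peak (vertical axis, percent) for the same 5 sets, with a point for each ATAC library and a bar at the mean, E13.5 libraries left of E12.0 libraries. In all 5 sets each E13.5 library lies above each E12.0 library, including the E12.0-only regions.

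Promoter position went with the ATAC class. Of the 69 members over a promoter window, 60 were open at both stages, 2 at E13.5 only, 0 at neither and 7 were mixed. Among members open at both stages they made up 20.1%, and among those open at E13.5 only 0.595%. Away from promoters, 1718 members (45.9%) lay inside the span of a protein-coding gene, 542 (14.5%) within 50 kb of one and 1414 (37.8%) farther away, close to the 46.2%, 16.2% and 34.6% of all merged regions. Exons and introns were not separated, because the gene table gives spans alone. A region inside a span or within 50 kb was assigned to that nearest gene, which names a neighbour and not a target.

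Among the members open at both stages with the highest folds, the first lay 2539 bp from Dnase1l3, a secreted DNase (chr14:7997300-7997657, folds 7.46 and 5.39), and Dnase1l3 RNA was at 1 count in each E13.5 library and 0 in each E12.0 library. The region over the promoter of Pgm3, an enzyme of UDP-GlcNAc synthesis, had folds of 4.63 and 6.29 (chr9:86571207-86571937). Pgm3 RNA was 30.6 and 34.7 CPM (counts scaled to TMM-adjusted library size) at E13.5, against 14.7 and 18.2 CPM at E12.0 (log2 fold change 0.99 ± 0.33 SE, edgeR adjusted p = 0.0328, up to 0.136 when single libraries were left out). The region over the promoter of Rnf24, which encodes a RING finger protein, had folds of 4.72 and 5.09 (chr2:131352966-131353528), and the one inside Rhobtb1 5.42 and 4.49 (chr10:69185921-69186481). The other 4 best ranked promoter members lay at Pwp1, Sptlc1, C2cd4b and Zrsr1, an imprinted splicing factor gene inside Commd1 whose member overlapped a Commd1 window.

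Members open at E13.5 only were led by regions inside Gsdmc4, a gasdermin gene (chr15:63895825-63896248, folds 5.65 and 5.09), and inside Nt5e, which encodes the ecto-5′-nucleotidase CD73 (chr9:88332058-88332700, 4.81 and 4.49). Gsdmc4 had 0 counts in all 4 RNA libraries, and Nt5e had 11 and 51 counts at E13.5, against 0 and 0 at E12.0. Next came regions near Nlgn1, which encodes a postsynaptic adhesion protein (24948 bp away, folds 4.29 and 4.65), and Arhgap21 (47639 bp away, 4.82 and 4.32). Arhgap21 RNA was 75.6 and 70.6 CPM at E13.5, against 79.5 and 81.3 CPM at E12.0.

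The member with the best rank among those open at neither stage (chr9:3012744-3013102, folds 5.68 and 5.95) lay 322128 bp from its nearest gene, Alkbh8, at the very start of the assembled chromosome, and both Tead libraries had a peak over it. Its repeat content was not measured here. The next lay inside Col10a1, the collagen X gene (6.1 and 4.79), and inside Pde4dip, which encodes a phosphodiesterase-interacting centrosomal protein (4.48 and 7.06, the highest fold of list 2). Pde4dip RNA was 75.8 and 86.2 CPM at E13.5, against 34.6 and 55.0 CPM at E12.0 (0.85 ± 0.29, edgeR adjusted p = 0.0351, up to 0.236 when single libraries were left out), while Col10a1 had 7 and 1 counts at E13.5, against 0 and 1 at E12.0. The fourth lay 65379 bp from Fibin (4.29 and 4.49).

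Some members at the Cdkn1b locus and near Cwc22 had a high −log10 q for their fold. Cdkn1b is the gene of the p27 reporter used to sort the E13.5 cells, and 6 members lay to its sides, 2 nearest Gpr19, an orphan G protein-coupled receptor gene, and 4 nearest Apold1, which encodes an endothelial apolipoprotein L domain protein. The Gpr19 promoter member (chr6:134887039-134888690) had folds of 4.71 and 4.06, ranking 110 and 447 among members, but −log10 q of 26.2 and 6.87, ranking 2 and 10. The member in Apold1 (chr6:134983752-134984639) had folds of 4.36 and 3.69, ranking 175 and 914, and −log10 q of 26.0 and 6.88, ranking 3 and 9. Each member's −log10 q was set against the median of members whose fold lay within 0.1 of its own, a comparison chosen after the values were seen. The 6 members that stood highest by the worse of their list ranks were 4 of the Cdkn1b flanks, at 2.15 to 4.55 times that median, and 2 near Cwc22, at 3.82 to 6.54 times. Cwc22, a spliceosome gene, lies in a segment known to vary in copy number among mouse strains. Copy number was not measured here, and whether the p27 reporter carries copies of the Cdkn1b flanks is not given in the labels and was not tested.

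**Figure D3:**
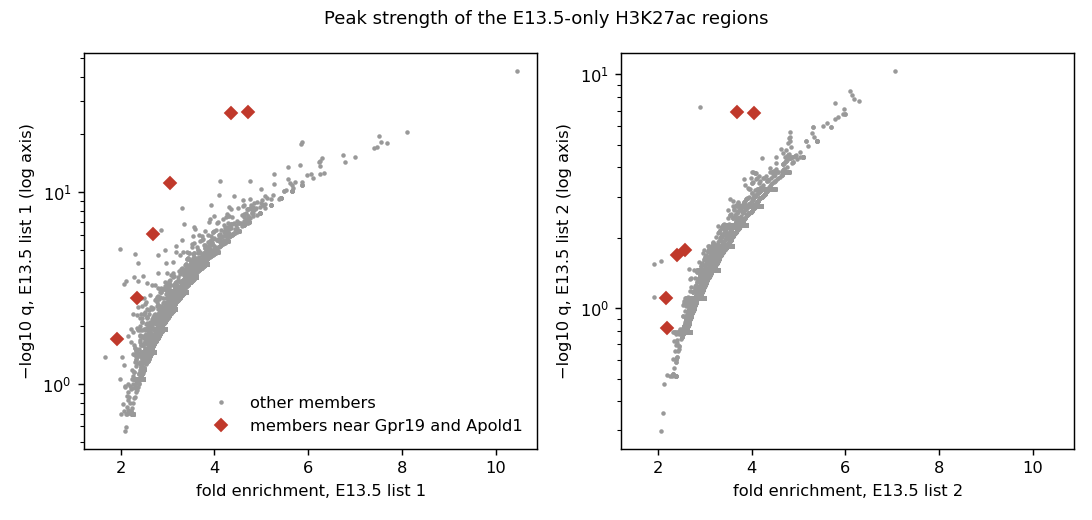
Fold enrichment (horizontal axis) against −log10 q (vertical log axis) of the 3743 members in E13.5 list 1 (left) and E13.5 list 2 (right), with diamonds for the 6 members near Gpr19 and Apold1. The Gpr19 and Apold1 members at −log10 q of 26.2 and 26.0 in list 1 lie above members of like fold.

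Around the start of Cdkn1b, members lay at -42250 and -33362 bp and at 46607, 55452, 63351 and 64633 bp from its start, with folds of 1.92 to 4.71 in list 1. Regions of all 4 lists lay among and between them, such as those at -22608 bp (folds 9.7 and 4.25), -3698 bp (4.27 and 3.65) and 7559 bp (5.66 and 2.75). Cdkn1b RNA was 228 and 182 CPM at E13.5, against 7.69 and 8.58 CPM at E12.0 (log2 fold change 4.65 ± 0.30 SE, edgeR adjusted p = 6.09e-06). Only the E13.5 cells were sorted on the reporter of this gene, so a stage difference in its RNA cannot be told apart from the sort. Apold1 RNA was 31.9 and 48.4 CPM at E13.5, against 0.137 and 0.588 CPM at E12.0 (6.71 ± 0.60, edgeR adjusted p = 2.45e-05), the largest difference of any gene with a member that met the naming rule. Gpr19 RNA was 20.3 and 17.3 CPM at E13.5 and 13.9 and 7.17 CPM at E12.0, and it did not pass the test (0.84 ± 0.44, edgeR adjusted p = 0.139).

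**Figure D4:**
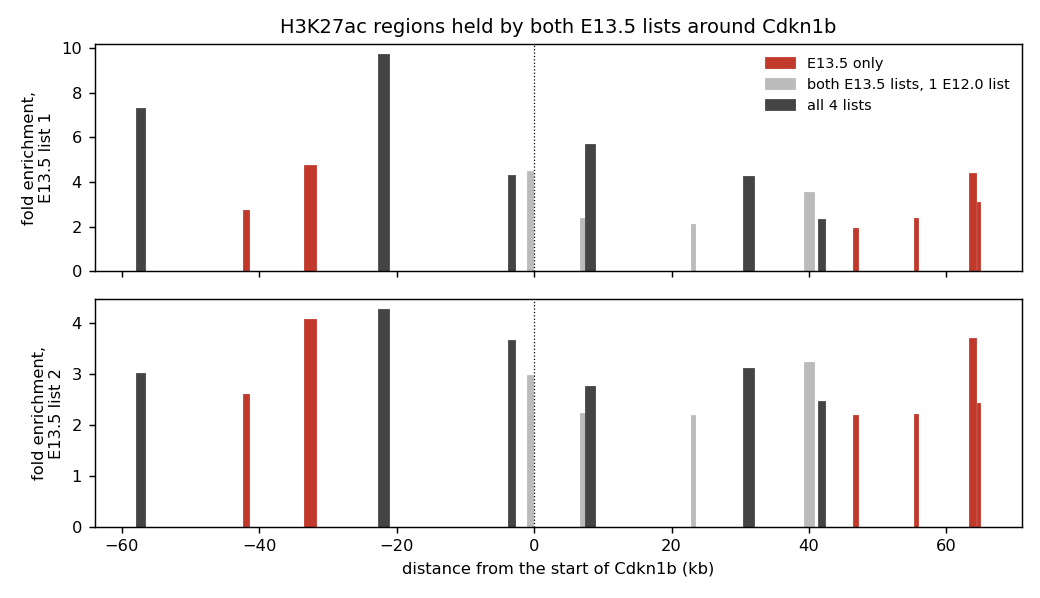
Fold enrichment (vertical axes, E13.5 list 1 above and list 2 below) of H3K27ac regions held by both E13.5 lists against distance from the start of Cdkn1b (kb), with bar width equal to region width. E13.5-only regions lie on both sides of the start, none next to it, with folds up to 4.71 in list 1, and regions of all 4 lists reach 9.7.

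Tead was profiled only at E12.0, when by the rule these regions were in no H3K27ac list, so its share describes that earlier stage. A peak of at least 1 Tead library lay over 489 members (13.1%), against 13.7% of all merged regions, 38.7% of E12.0-only regions and 91.3% of regions of all 4 lists. Tead library 1 (18250 peaks) held 62 members (1.66%) and library 2 (58410 peaks) held 443 (11.8%). The share with any Tead peak was 22.4% among members open at both stages, 16.1% among those open at E13.5 only, 20.4% among mixed members and 7.84% among those open at neither. Both libraries held 16 members (0.427%, against 0.556% of all merged regions). Of these 16, 3 lay 57858 to 77024 bp from Cwc22, and one each lay in the promoter window of Lrguk, in Rb1, the retinoblastoma gene (chr14:73303331-73303810, folds 4.33 and 3.17), and in Sh3gl2, Sptan1, Ano10 and Dcaf5. The other 7 lay outside gene spans.

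RNA near the regions was close to the background of this comparison. Genes were tested between E13.5 and E12.0 with edgeR's quasi-likelihood test on 15982 genes, of which 3579 were higher at E13.5 (22.4%) and 3761 lower (23.5%), 45.9% in all, at an adjusted p under 0.05. The members had 1735 nearest genes within 50 kb, 1720 of them in the RNA tables and 1357 tested, so the rest had too few counts to test. Of the tested genes 295 were higher (21.7%) and 260 lower (19.2%), and their median log2 fold change was 0.12, against 0.05 for all tested genes. The 12661 tested protein-coding genes, the closer background since only such genes were assigned, were higher in 23.0% and lower in 21.3%, with a median of 0.1. Tested genes of E12.0-only regions were higher in 21.9% and lower in 24.0% (median -0.01), and those of regions of all 4 lists in 22.8% and 23.0% (median 0.06). By ATAC class, 24.0% were higher and 16.9% lower for members open at E13.5 only (154 genes tested), 21.1% and 23.0% for those open at both stages (209) and 21.7% and 17.2% for those open at neither (752). Among 113 tested genes with at least 3 members 28.3% were higher and 16.8% lower, and their median span was 387 kb, against 25.1 kb for tested protein-coding genes. The part of gene length was not tested. Without E12.0 RNA replicate 1, 179 genes were higher (12.6%, against 13.2% of all tested genes) and 215 lower (15.2%, against 16.4%), and the median lay 0.08 below that of all genes. On log2(TPM + 1) values in limma, which put the median of all genes at 0.76, 578 were higher (42.6%, against 42.7% of all tested genes) and 94 lower (6.93%, against 13.1%). On the TPM scale, the median level of members' genes was 14.8 at E13.5 and 6.79 at E12.0, against 11.6 and 5.62 for the nearest genes of all merged regions, 30.9 and 15.6 for those of regions of all 4 lists, and 4.51 and 2.16 for all RefSeq protein-coding genes in the tables.

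The 6 largest rises with non-overlapping libraries were in Apold1 and in the next 5 genes. Sntb1, a syntrophin of the dystrophin complex, had 64.5 and 87.7 CPM at E13.5, against 1.1 and 0.705 CPM at E12.0, with a member open at E13.5 only and a mixed one. Ccdc171, a coiled-coil gene, had 25.9 and 23.0 CPM at E13.5, against 0.549 and 0.353 CPM at E12.0, and 3 members. Both E13.5 values lay far above both E12.0 values in each of these genes. Acss3, an acyl-CoA synthetase, had 28.7 and 27.6 CPM at E13.5, against 0.137 and 1.06 CPM at E12.0. Tox2, an HMG-box factor, had 64.9 and 75.1 CPM at E13.5, against 1.79 and 1.65 CPM at E12.0. C2cd4b, which encodes a nuclear C2-domain protein and whose promoter window is printed above, had 14.3 and 20.4 CPM at E13.5, against 0.961 and 0.118 CPM at E12.0. Their log2 fold changes ran from 5.05 ± 0.77 for C2cd4b to 6.40 ± 0.43 for Sntb1 (SE, edgeR adjusted p from 8.14e-06 to 0.000559). Sizes moved with single libraries, to 7.6 for Acss3 and 8.11 for Apold1 without E12.0 RNA replicate 2, and to 7.11 for C2cd4b without E12.0 RNA replicate 1. The C2cd4b member was open at both stages, had folds of 4.27 and 5.39 and lay only 43 bp from an E12.0 H3K27ac peak. The members of Tox2 and Acss3 were open at neither stage.

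Genes with lower RNA at E13.5 had E13.5-only regions too. Fastkd1, a mitochondrial RNA-binding protein gene, had 0.0475 and 1.14 CPM at E13.5, against 36.7 and 38.7 CPM at E12.0 (log2 fold change -5.93 ± 0.80, edgeR adjusted p = 0.000271). Ackr3, the scavenger receptor for the chemokine CXCL12, had 0.143 and 0.592 CPM at E13.5, against 19.4 and 17.6 CPM at E12.0 (-5.60 ± 0.71, edgeR adjusted p = 0.000178), and its member 824 bp away was open at both stages (folds 3.05 and 3.29). Dab2ip, a Ras GTPase-activating protein gene, had 63.2 and 45.9 CPM at E13.5, against 1116 and 1216 CPM at E12.0 (-4.42 ± 0.30, edgeR adjusted p = 8.14e-06). Like the rises, these falls were chosen among genes whose libraries did not overlap between the stages. Without E13.5 RNA replicate 2 the log2 fold change was -9.35 for Fastkd1 and -6.92 for Ackr3. Nell1 (-5.86 ± 1.03), Tmem200c (-5.82 ± 0.96) and Adarb2 (-4.92 ± 0.78) were the other 3, each with E12.0 levels under 10 CPM. Sptlc1, a subunit of the enzyme that starts sphingolipid synthesis and has a member over its promoter, fell to 29.7 and 29.1 CPM at E13.5, against 95.6 and 115 CPM at E12.0 (-1.84 ± 0.26, edgeR adjusted p = 0.000339).

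**Figure D5:**
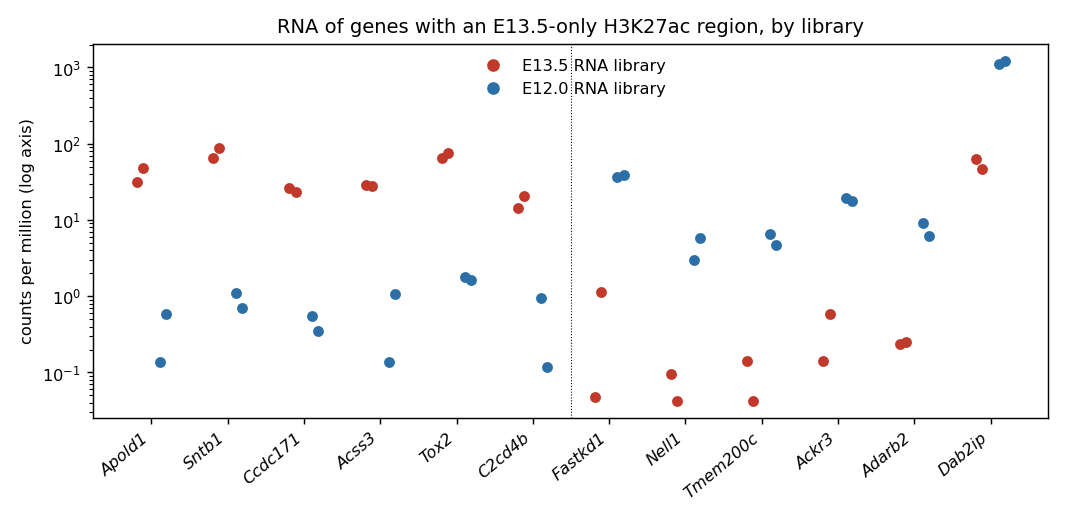
RNA level in CPM (vertical log axis) of the 6 genes with the largest rise and the 6 with the largest fall among genes with an E13.5-only region, with a point per library, E13.5 left of E12.0. The stages do not overlap in any of the 12 genes, which were chosen for that.

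Of all 21887 protein-coding genes 7.93% were the nearest gene of a member within 50 kb, and of the 17251 genes nearest to any merged region 10.1% were. These shares are the background for the counts by gene list. Tested genes with a member had a median span of 101 kb, against 25.1 kb for tested protein-coding genes, and the shares do not allow for gene length. Of 31 otic and prosensory factors 6 had a member, 8 members in all, of which 1 was open at E13.5 only, 1 at neither stage and 6 were mixed. In the list as a whole 12 of 28 tested genes were higher at E13.5 and 7 lower (median log2 fold change 0.50). Among all tested protein-coding genes 23.0% were higher and 21.3% lower (median 0.1). Sox2, the prosensory factor, had a weak member 29554 bp away (chr3:34620110-34620440, folds 2.71 and 3.22), under a peak in 1 of 3 E13.5 ATAC libraries. Sox2 RNA was 152 and 168 CPM at E13.5, against 36.8 and 39.4 CPM at E12.0 (2.07 ± 0.25, edgeR adjusted p = 0.000132). The member in Fgfr1, the receptor that acts in prosensory specification (chr8:25527468-25528049, 3.46 and 3.59), lay under all 3 E13.5 and 2 E12.0 ATAC libraries. Fgfr1 RNA was 155 and 112 CPM at E13.5, against 64.1 and 66.4 CPM at E12.0 (1.03 ± 0.26, edgeR adjusted p = 0.00853, up to 0.0719 when single libraries were left out). The members near Sox11, a SoxC factor, lay 39091 and 16303 bp away, and Sox11 RNA fell to 384 and 608 CPM at E13.5, against 1585 and 1716 CPM at E12.0 (-1.73 ± 0.29, edgeR adjusted p = 0.00096). Lmx1a and Dach1, transcription factors of the otic vesicle, and Prox1, a factor of differentiating supporting cells, had members too, and their RNA did not pass the test.

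Of 16 hair cell genes 3 had a member, 5 in all. The member nearest Atoh1 lay 42440 bp away and was open at E13.5 only (chr6:64773686-64774139, folds 3.16 and 3.95), 245 bp from an E12.0 peak. Atoh1 RNA was 2.38 and 5.03 CPM at E13.5, against 0.275 and 0.94 CPM at E12.0 (2.57 ± 0.90, edgeR adjusted p = 0.0387, 0.0607 with DESeq2). Pcdh15, a tip-link cadherin gene, held 3 members, of which 1 was open at E13.5 only (folds 3.04 and 4.74), and Myo6, an unconventional myosin gene, held 1. Pcdh15 RNA was 91.2 and 45 CPM at E13.5, against 83.6 and 103 CPM at E12.0, and Myo6 RNA 44.8 and 34.5 CPM at E13.5, against 17.6 and 26.3 CPM at E12.0, and neither passed the test. The call for Atoh1 was also lost without E12.0 RNA replicate 1 (adjusted p = 0.187) or E13.5 RNA replicate 2 (0.273). Of 19 supporting cell and tectorial genes only Prdm16, a chromatin regulator gene, had members, 2 that were open at neither stage.

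Of 26 Hippo, Yap and Tead components 5 had 1 member each. The member in Stk3, which encodes the Hippo kinase MST2, was open at E13.5 only (chr15:34904326-34905221, folds 4.36 and 3.66), and that in Vgll4, a Tead-binding competitor of Yap, at both stages (chr6:114929280-114929666, 2.91 and 3.59). Stk3 RNA was 56.3 and 67.6 CPM at E13.5, against 36.4 and 29.5 CPM at E12.0 (0.91 ± 0.28, edgeR adjusted p = 0.0228). Vgll4 RNA was 90.5 and 75.2 CPM at E13.5, against 29.3 and 49.5 CPM at E12.0 (1.07 ± 0.31, edgeR adjusted p = 0.0163). Both genes were higher at E13.5, and 2 others with a member were lower. Tead1 RNA, with a member open at both stages inside the gene, fell to 37.9 and 26.4 CPM at E13.5, against 78.4 and 127 CPM at E12.0 (-1.68 ± 0.32, edgeR adjusted p = 0.00187). RNA of Sav1, the scaffold of the Hippo kinases, fell to 7.18 and 7.7 CPM at E13.5, against 35.4 and 40.3 CPM at E12.0 (-2.35 ± 0.35, edgeR adjusted p = 0.000446). Lats2, the kinase that phosphorylates Yap, had a member open at neither stage and did not pass the test (-0.41 ± 0.28). Leaving out single RNA libraries ended the calls of Stk3 (adjusted p up to 0.137) and Vgll4 (up to 0.128), and that of Tead1 was lost on log2(TPM + 1). In the whole list 4 of 25 tested genes were higher and 10 lower (median -0.44), against 23.0% higher and 21.3% lower among all tested protein-coding genes (median 0.1).

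Of 23 Yap and Tead target genes 6 had a member, 8 in all, of which 4 were open at neither stage. Besides Nt5e, with 2 members, they were Asap1 (2), Rbms3, F3, Lats2 and Tgfb2. F3, the tissue factor gene, had a member at its promoter that was open at both stages (chr3:121722839-121723322, folds 3.07 and 3.89), and its RNA was 4.32 and 6.68 CPM at E13.5, against 3.98 and 10.2 CPM at E12.0. Rbms3, an RNA-binding protein gene, was higher at E13.5 (0.95 ± 0.26, edgeR adjusted p = 0.0126, up to 0.101 when single libraries were left out) and Tgfb2, a growth factor gene, lower (-1.89 ± 0.35, edgeR adjusted p = 0.00162). Of these 8 members 0 were under a peak of either Tead library, too few members to set against the 13.1% of the whole set.

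Of 16 cell cycle inhibitors and p27-locus genes 5 had 10 members, 6 of them the Cdkn1b flanks. Gadd45g, a growth arrest gene induced by stress, had 2 (35662 and 16729 bp away), and its RNA was 35.7 and 51.4 CPM at E13.5, against 21.4 and 21.4 CPM at E12.0 (1.02 ± 0.32, edgeR adjusted p = 0.0242, up to 0.192 when single libraries were left out). Rb1 (0.76 ± 0.30) and Btg1, an antiproliferative gene (0.64 ± 0.27), did not pass the test. Of 20 cell cycle drivers 2 had 3 members. In that list 14 of 20 tested genes were lower at E13.5 (70.0%, against 21.3% of tested protein-coding genes) and 1 higher (5.0%, against 23.0%). RNA of Cdk6, a G1 kinase gene with 2 members inside it, fell to 19.6 and 10.7 CPM at E13.5, against 97.6 and 98.8 CPM at E12.0 (-2.70 ± 0.34, edgeR adjusted p = 0.000165). RNA of E2f3, an S-phase transcription factor gene, fell to 32.6 and 22.8 CPM at E13.5, against 90.4 and 96.5 CPM at E12.0 (-1.75 ± 0.28, edgeR adjusted p = 0.000758), a call lost on log2(TPM + 1).

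In the Notch list 2 of 22 genes had a member, both co-activator genes and both members open at E13.5 only. RNA of Maml1 fell to 9.65 and 9.01 CPM at E13.5, against 95.4 and 159.9 CPM at E12.0 (-3.77 ± 0.33, edgeR adjusted p = 2.08e-05), with a member of folds 4.36 and 3.05 inside it (chr11:50277653-50278038). Maml2 RNA was 50.9 and 34.5 CPM at E13.5, against 22.0 and 26.8 CPM at E12.0, and did not pass the test. Of 24 Wnt, Hedgehog, BMP and FGF response genes 3 had a member. Lgr5, a Wnt-responsive receptor of supporting cells, had 2 members with folds of 2.5 to 3.59, and its RNA was 453 and 438 CPM at E13.5, against 184 and 132 CPM at E12.0 (1.5 ± 0.26, edgeR adjusted p = 0.00113). Gli3, the Hedgehog repressor, was lower at E13.5 (-1.02 ± 0.25, edgeR adjusted p = 0.00704), and Lef1, a Wnt effector, did not pass the test. Both Gli3 and Lef1 had a member inside the gene, and the Gli3 call was lost on log2(TPM + 1), with a value of -0.02.

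The genes with the most members were long. Of the 1735 genes 1365 had 1 member, and Fhit, a fragile-site gene, had 11 over a span of 1612 kb. Gpc5 and Cntn5 had 9 each, Lrp1b 8, Cntnap2 and Ccser1 7 each, and Nlgn1 and Sema3d 6 each, with spans from 206 to 2241 kb. Of their members 1 in Gpc5 and 1 in Nlgn1 were open at E13.5 only, and 0 in the other 6 genes. Lrp1b, an LDL receptor family gene, had 34.9 and 20.2 CPM at E13.5, against 0.687 and 2.35 CPM at E12.0 (4.15 ± 0.60, edgeR adjusted p = 0.000399, 5.31 without E12.0 RNA replicate 2), and Ccser1 15.5 and 13.3 CPM at E13.5, against 1.37 and 2.94 CPM at E12.0 (2.73 ± 0.57, edgeR adjusted p = 0.00338). Cntnap2, a neurexin family gene, was lower at E13.5 (-2.51 ± 0.91, edgeR adjusted p = 0.0444), a call that was lost when E12.0 RNA replicate 1 or 2 or E13.5 RNA replicate 2 was left out, with a value of -4.05 without E13.5 RNA replicate 1. Fhit, Cntn5, Gpc5 and Sema3d did not pass the test, and Nlgn1 had too few counts to test.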

How the data were processed

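Organ of Corti progenitors were profiled by RNA-seq, ATAC-seq and CUT&RUN, with groups and replicate numbers taken from the sample titles. Deposited RNA tables hold expected counts per gene, per the file headers. Deposited peak lists give, for each library, a fold (ratio over local background), −log10 p and −log10 q and an unused score. Per the submitters' processing notes, STAR, MACS2 and UMI-tools were used with GRCm38 (mm10). Their versions, and the program behind the expected counts, are not given in the sources used here.

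Peak intervals were merged at 1 bp of overlap. Expected counts were rounded, kept by filterByExpr, TMM-scaled, and tested in R 4.3.3 with edgeR 4.0.16 (quasi-likelihood F test, Benjamini-Hochberg adjustment, threshold 0.05). The SE of a log2 fold change was derived from that test, as its absolute value divided by the square root of the F statistic. DESeq2 1.42.0 and limma 3.58.1 on log2(TPM + 1) were alternatives. Replicate libraries were not duplicates: chi-square per degree of freedom was 46.7 at E13.5 and 29.7 at E12.0. Intervals and counts were tested on simulated data. Genes and promoter windows came from RefSeq (GRCm38.p6): 21152 of 21887 protein-coding genes were in the RNA tables. No genome sequence was used here, so motifs were searched in promoter windows alone.

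Members, lists and rules were chosen with earlier results of these data known. Members were ranked by the worse of their fold ranks in the E13.5 lists. Named were the 4 best per ATAC class, up to 3 per gene list, the 8 genes with most members, the 6 largest rises and 6 largest falls in RNA with counts in all libraries, and up to 6 best promoter members. Cwc22, the −log10 q comparison, and the members held by both Tead libraries were chosen after their values were seen.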

Additional observations from a re-analysis of the deposited data

How the results depend on the processing

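The size of the set depended on the peak threshold. With −log10 q of 2 or more in all 4 H3K27ac lists 947 regions met the rule, and with that limit in the E13.5 lists alone 667 did; 664 of the 3743 members overlapped either set. Leaving out single H3K27ac libraries gave 4607 to 77200. With openness in at least 2 of 3 ATAC libraries, 508 members were open at both stages, 804 at E13.5 only and 7 at E12.0 only. In the stricter H3K27ac set, 167 (17.6%) were open at both stages, 109 (11.5%) at E13.5 only and 355 (37.5%) at neither. The share open at neither stage was 56.6% in the main set. Without single ATAC libraries, 364 to 527 were open at E13.5 only and 0 to 3 at E12.0 only. Both Tead libraries held 3 members at a Tead −log10 q of 2 or more and 10 of the stricter H3K27ac set. Any Tead library held 489, and single libraries 62 to 443. The cause of these differences was not tested.

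Over all genes, log2(TPM + 1) in limma called 6821 higher and 2101 lower, and leaving out single libraries gave 2341 to 2751 higher. For members' genes that scale called 578 higher and 94 lower, the stricter H3K27ac set 98 (20.0%, against 22.4% of all genes) and 113 (23.1%, against 23.5%) among fewer genes, and leaving out single libraries 179 to 242 higher. The members' median minus that of all genes was 0.07, but 0.02 without a count filter, -0.04 in the stricter set, and -0.08 to 0.08 without single libraries. Replicate numbers did not pair the RNA libraries (correlation of deviations 0.00816). With a replicate block 3440 genes were higher and 3698 lower, and 285 and 264 of the members' genes. In pairs the ATAC difference gave an exact p of 0.25, the smallest 3 pairs allow. For the 60 genes with a named RNA value, 467 of 540 values kept direction and side of the threshold, 27 lost a call, 21 gained one, and 0 values called in the edgeR fit changed sign. On log2(TPM + 1), 3 genes not called by edgeR were called in the opposite direction: Asap1 (1.56), Prdm16 (1.74) and Arhgap21 (0.93). Leaving out the Cdkn1b flanks, a setting added after the values were seen, left 3737 regions and 294 higher genes. Expected counts near 0 limit the folds of low genes.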

Other observations

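Chromosome 3 held 9.08% of members, 7.02% of E12.0-only regions and 6.23% of regions of all 4 lists, chromosome 7 held 3.15%, 5.02% and 6.46%, and the X chromosome held 0.347%, 0.681% and 0.361%. A single miRNA hairpin, Mir6392, overlapped a member (chr15:84168175-84168456, nearest gene Pnpla3, a mixed region). Members and E12.0-only regions shared 426 nearest genes, 24.6% of the members' genes and 29.5% of the genes of E12.0-only regions, where E12.0-only regions had 8.38% of the 17251 genes nearest to any merged region. Members and regions of all 4 lists shared 643, 37.1% of the members' genes and 18.7% of the genes of those regions, where regions of all 4 lists had 19.9% of the 17251. The overlaps were not tested.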
